A study of Vitis vinifera and Vitis vinifera
Schisandra chinensis with 13 samples.

Results

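The miRNAs described here are the members of the miR399, miR827 and miR395 families in the small RNA libraries of grafted grape. Members were all entries of the deposited table of expressed miRNAs that carry 1 of these 3 family names. There were 50 such entries among 1178, each 1 mature sequence at 1 precursor, and 37 were left once identical entries were used once. Of these, 20 were miR399, 15 were miR395 and 2 were miR827. The table gave 5 of the miR395 entries the same counts as another entry, so 32 had counts of their own.

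The Vs hybrids were *V. vinifera* ‘Hongruibao’ scions on wild *S. chinensis* rootstocks, and their controls, the Vv plants, were self-rooted ‘Hongruibao’. All had grown for 25 years in 1 area and received no treatment, and 3 separate plants of each kind gave 1 small RNA library and 1 RNA-seq library apiece. Each library was a pool of RNA from leaf, phloem and whole ripe berry, so no value can be assigned to an organ, and fewer cells of a type cannot be told apart from less RNA per cell. A single degradome library was made from RNA of all 6 plants mixed, although 1 of its labels names the self-rooted plants alone, and it allows no comparison between Vs hybrids and Vv plants.

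In plants, miR399 accumulates when phosphate is short and moves through the phloem, and in *Arabidopsis* it cleaves the mRNA of PHO2, a ubiquitin-conjugating (E2) enzyme that restrains phosphate uptake. The miR827 family answers to the same shortage and targets SPX-domain genes, which in *Arabidopsis* include a ubiquitin ligase of phosphate transporters and in other plants include vacuolar phosphate carriers. The miR395 family answers to sulfate shortage and targets ATP sulfurylase, the first enzyme of sulfate assimilation, and a sulfate transporter.

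The sequences below are the mature sequences on which the results turn, as the deposited table spells them with T for U, 5′ to 3′, with the seed (bases 2 to 8) in capitals. Names ending in -p5 are reads from the arm opposite the annotated one, and suffixes such as R+1 or 1ss21GT give the difference from the miRBase entry, of grape (vvi) or of the other species named by the prefix. The first 6 share 1 seed, which 8 of the miR399 entries carried, so they differ mostly after the seed.
vvi-miR399g: tGCCAAAGgagatttgcccct
vvi-miR399e: tGCCAAAGgagatttgcccgg
vvi-miR399a: tGCCAAAGgagaattgccctg
vvi-miR399b: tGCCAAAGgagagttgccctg
vvi-miR399i: cGCCAAAGgagagttgccctg
tcc-miR399a_1ss21GT: cGCCAAAGgagagttgccctt
vvi-miR399d_L+2R-2: tCTGCCAAaggagatttgctc
vvi-MIR399g-p5: gGGCAATActccattggcagt
vvi-MIR399i-p5: gGGCTTCTctccttctggcagg
tcc-miR827_1ss9CT: tTAGATGAtcatcaacaaaca
stu-miR827-5p_2ss8AC19TG: tTTGTTGCtggtcatctagtc
vvi-miR395a: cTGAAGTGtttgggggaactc
stu-miR395a_R+1: cTGAAGTGtttgggggaactct
vvi-MIR395g-p5: gTTCCCCTgagcacttcattg

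Counted from 1 at the 5′ end, vvi-miR399e differed from vvi-miR399g by C20G and T21G. The differences of vvi-miR399a from vvi-miR399g were T13A, C20T and T21G, and those of vvi-miR399b were T13G, C20T and T21G. In vvi-miR399i they were T1C, T13G, C20T and T21G. The sequence of vvi-miR399d_L+2R-2 starts 2 bases earlier on its precursor than the annotated miRNA, so its seed is another one, shared with 1 further miR399 entry.

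The precursors of miR399 were spread over several chromosomes. Of these, 5 lay together on chromosome 10, between 2981247 and 2992331, a span of 11.1 kb by the coordinates of the deposited table. They were MIR399g (chr10:2981247-2981359, minus strand), MIR399h (chr10:2983545-2983634, plus), MIR399d (chr10:2988021-2988125, minus), MIR399a (chr10:2989450-2989546, plus) and MIR399e (chr10:2992220-2992331, minus). MIR399i lay apart at chr2:4101801-4101922 on the plus strand, MIR399b at chr16:15618708-15618824 on the minus strand and MIR399c at chr15:15232200-15232281 on the plus strand. The miR395 family held 12 precursors within 84.6 kb of chromosome 1 (6482113 to 6566743), all 12 with vvi-miR395a as their mature product. Both miR827 entries came from 1 hairpin at chr5:24742044-24742198 on the minus strand. The reads of a sequence were divided equally among its precursors before deposit, so each value below is the share of 1 precursor in CPM, the reads scaled to 1 library total, which for vvi-miR395a is 1 of 12 shares and for vvi-miR399a and vvi-miR399b 1 of 2.

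The small RNA libraries held 1027871 to 1322783 miRNA reads in Vs hybrids and 1376351 to 1738257 in Vv plants, with identical entries used once. Over all entries the miR827 family took 1.79, 1.66 and 0.857% of the miRNA reads in Vs hybrids, against 0.962, 2.004 and 4.28% in Vv plants. The miR399 family took 0.120, 0.112 and 0.207% in Vs hybrids, against 0.217, 0.101 and 0.137% in Vv plants. The miR395 family took 0.0447, 0.0869 and 0.0616% in Vs hybrids, against 0.101, 0.0629 and 0.153% in Vv plants. The groups overlapped in all 3 families, and the miR827 family was the most abundant of them in every library.

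Of the 32 entries with counts of their own, 18 passed the filter on low counts and were tested, 13 of miR399, 3 of miR395 and 2 of miR827. By edgeR's quasi-likelihood test with Benjamini-Hochberg adjustment over all 332 tested entries, 0 of the 18 members passed an adjusted p of 0.05, where 6.02% of all tested entries did. At an unadjusted p of 0.05 or less there were 4 members, 3 lower and 1 higher in Vs hybrids, which is 22.2% beside 25.9% of all tested entries, of which 13.3% were lower and 12.7% higher. DESeq2 on the same entries put 1 member past an adjusted p of 0.05, where 45 of all entries passed. It put 7 members at an unadjusted p of 0.05 or less, for which the share over all entries was not computed. The log2 fold change, Vs hybrids over Vv plants, was below 0 in 15 of the 18 members, beside 51.2% of all tested entries, and its median was -0.93, beside -0.03 over all tested entries. Groups did not overlap in 2 members, both with Vs hybrids below, where 31.9% of all tested entries did not overlap and 15.4% had Vs hybrids below. Several members come from the same precursor or differ by few bases, so these counts are not over independent values.

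**Figure D1:**
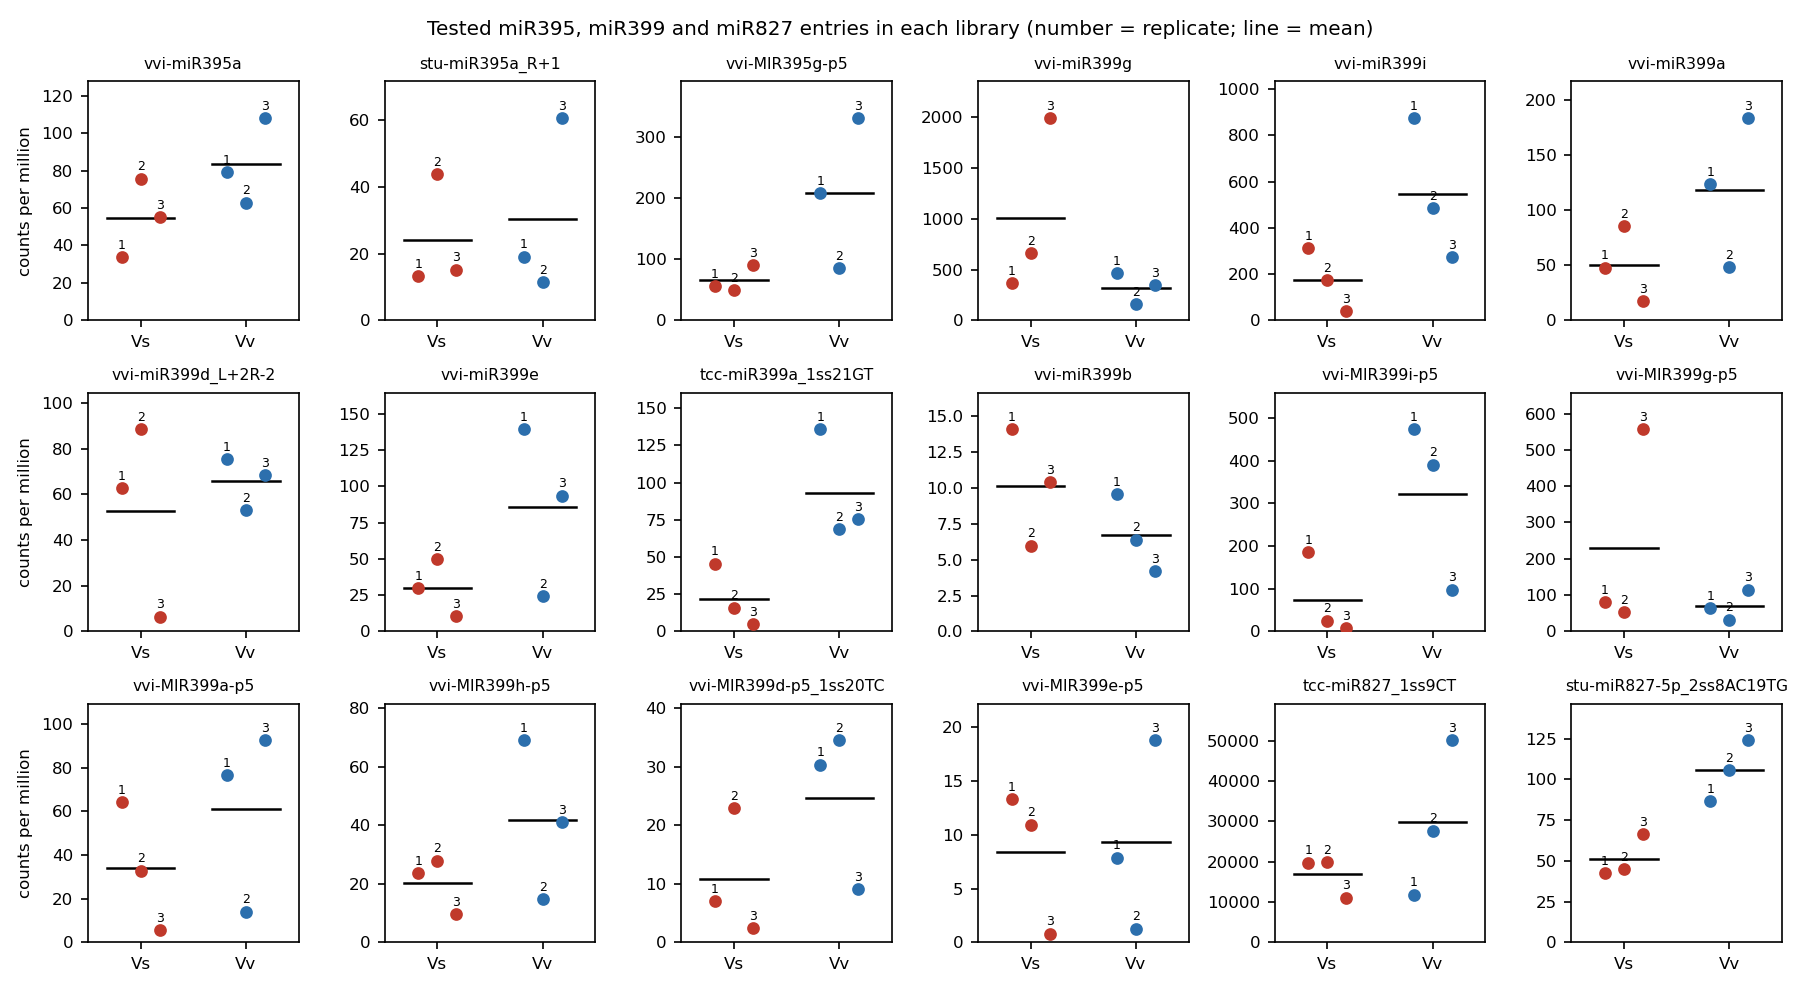
Each panel plots 1 tested entry in CPM, with a point per library numbered by replicate, Vs hybrids (red) left of Vv plants (blue), and a line at the group mean. The groups overlap in every panel except tcc-miR399a_1ss21GT and stu-miR827-5p_2ss8AC19TG, and Vs replicate 3 is the top point for vvi-miR399g and vvi-MIR399g-p5.

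Within miR399, 10 of 13 tested entries had a log2 fold change below 0 and 3 above 0, with a median of -1.04. The most abundant, vvi-miR399g, was at 369, 658 and 1989 CPM in Vs hybrids and at 463, 158 and 346 CPM in Vv plants. Vs replicate 3 stood far above the other libraries and Vs replicate 1 lay inside the range of the Vv plants. It gave a log2 fold change of 1.64 (SE 0.68, edgeR adjusted p = 0.164). Without Vs replicate 3 the log2 fold change of vvi-miR399g was 0.59 (edgeR adjusted p = 0.580).

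The other arm of the same hairpin, vvi-MIR399g-p5, had 80.9, 52.8 and 558 CPM in Vs hybrids and 64.1, 32.7 and 115 CPM in Vv plants. Again Vs replicate 3 alone stood out, and the log2 fold change was 1.71 (SE 0.90, edgeR adjusted p = 0.255), against -0.11 without that library. The third entry above 0, vvi-miR399b, which the annotation places at both MIR399b and MIR399c, was low throughout. It had 14.1, 5.97 and 10.4 CPM in Vs hybrids and 9.56, 6.41 and 4.18 CPM in Vv plants, with overlapping groups and a log2 fold change of 0.59 (SE 0.52, edgeR adjusted p = 0.477).

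The second most abundant member of the family, vvi-miR399i, went the other way in its values. It had 312, 174 and 40.1 CPM in Vs hybrids and 875, 485 and 274 CPM in Vv plants. Vv replicates 1 and 2 lay above every Vs library, Vv replicate 3 lay just under Vs replicate 1, and Vs replicate 3 was lowest. Its log2 fold change was -1.64 (SE 0.73, edgeR adjusted p = 0.192). Its opposite arm, vvi-MIR399i-p5, was at 186, 24.9 and 8.01 CPM in Vs hybrids and at 474.5, 391 and 97.6 CPM in Vv plants. Only Vs replicate 1 reached into the range of the Vv plants. The log2 fold change of vvi-MIR399i-p5 was -2.13 (SE 1.05, edgeR adjusted p = 0.230), and without Vs replicate 1 it was -4.29 with an adjusted p of 0.0365 from edgeR.

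The sequence tcc-miR399a_1ss21GT comes from the same stretch of chromosome 2 as MIR399i. It was 1 of the 2 members whose groups did not overlap, at 45.5, 15.9 and 4.81 CPM in Vs hybrids and 136, 68.6 and 75.3 CPM in Vv plants. Every Vs library lay below every Vv library, with a log2 fold change of -2.07 (SE 0.76, edgeR adjusted p = 0.136). The 3 reads from this place on chromosome 2, vvi-miR399i, vvi-MIR399i-p5 and tcc-miR399a_1ss21GT, had the 3 lowest log2 fold changes of the miR399 family.

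The other miR399 products of the chromosome 10 cluster had log2 fold changes below 0, while both arms of MIR399g, at the edge of the same cluster, were above 0. vvi-miR399a, assigned to MIR399a and MIR399h, had 47.9, 85.6 and 17.6 CPM in Vs hybrids and 124, 48.7 and 184 CPM in Vv plants. Vs replicate 2 lay inside the range of the Vv plants, and the log2 fold change was -1.24 (SE 0.69, edgeR adjusted p = 0.278). vvi-miR399e had 29.8, 49.8 and 10.4 CPM in Vs hybrids and 139, 24.3 and 93.4 CPM in Vv plants. The groups overlapped through Vv replicate 2, and the log2 fold change was -1.52 (SE 0.76, edgeR adjusted p = 0.234). vvi-miR399d_L+2R-2 had 62.8, 88.6 and 6.41 CPM in Vs hybrids and 75.3, 53.2 and 68.3 CPM in Vv plants, so that the groups overlapped and Vs replicate 3 was far below the rest.

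The log2 fold change of vvi-miR399d_L+2R-2 was -0.32 (SE 0.77, edgeR adjusted p = 0.844) and turned to 0.14 without Vs replicate 3. Among the 5p reads of the cluster, vvi-MIR399a-p5 had 64.4, 32.9 and 5.61 CPM in Vs hybrids and 76.5, 14.1 and 92.7 CPM in Vv plants, with overlapping groups. The log2 fold changes of the 5p reads other than vvi-MIR399g-p5 ran from -0.15 (SE 0.95) for vvi-MIR399e-p5, through -0.83 (SE 0.88) for vvi-MIR399a-p5 and -1.04 (SE 0.66) for vvi-MIR399h-p5, to -1.22 (SE 0.79) for vvi-MIR399d-p5_1ss20TC. None of these 4 passed, with adjusted p from 0.341 to 0.930 by edgeR.

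**Figure D2:**
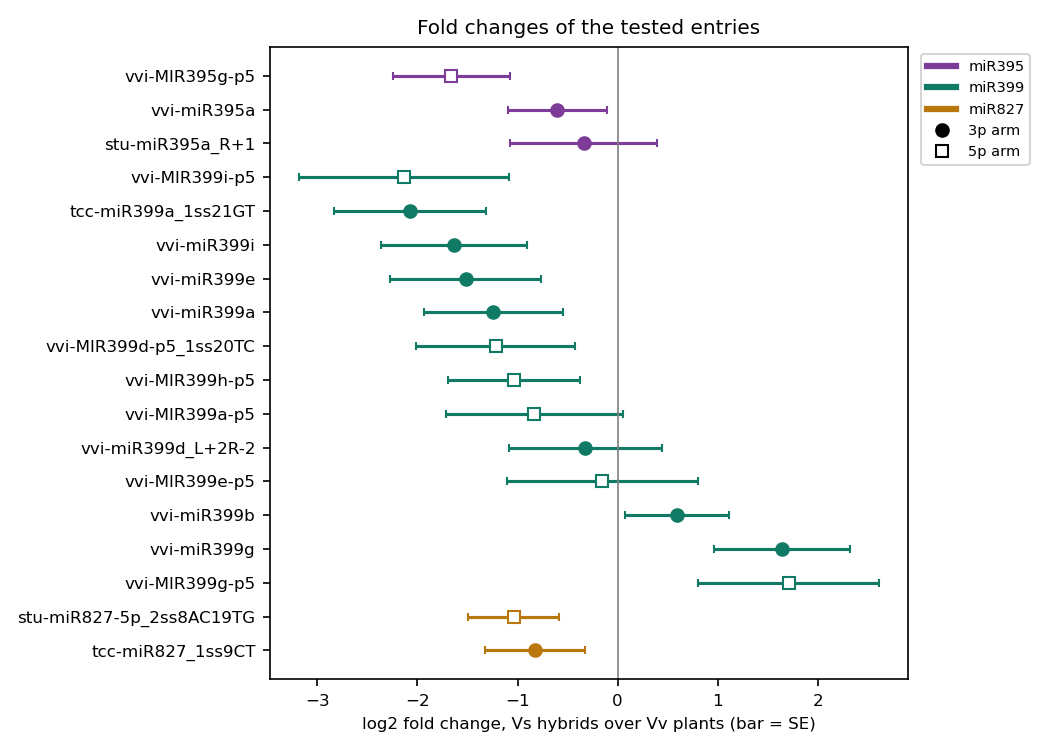
The log2 fold change of each tested entry, Vs hybrids over Vv plants, is plotted with its standard error from the edgeR fit. Colours give the family, with filled circles for the 3p arm and open squares for the 5p arm. The 3 entries right of 0 are vvi-miR399b (0.59), vvi-miR399g (1.64) and vvi-MIR399g-p5 (1.71), and the other 15 lie left of 0.

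One library ran through much of this pattern. Of the 13 tested miR399 entries, 10 had their lowest value of all 6 libraries in Vs replicate 3 and 2 had their highest there, the 2 being the arms of MIR399g. Counted over the reads of the family, vvi-miR399g made up 27.8, 48.9 and 73.7% of miR399 reads in Vs hybrids and 17.2, 11.2 and 21.4% in Vv plants. In this share, unlike in CPM, all 3 Vs libraries lay above all 3 Vv libraries. vvi-miR399i made up 23.4, 13.0 and 1.495% in Vs hybrids and 32.5, 34.7 and 16.98% in Vv plants, where Vs replicate 1 lay inside the range of the Vv plants. The shares are of 1 total, so they do not move independently of each other.

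**Figure D3:**
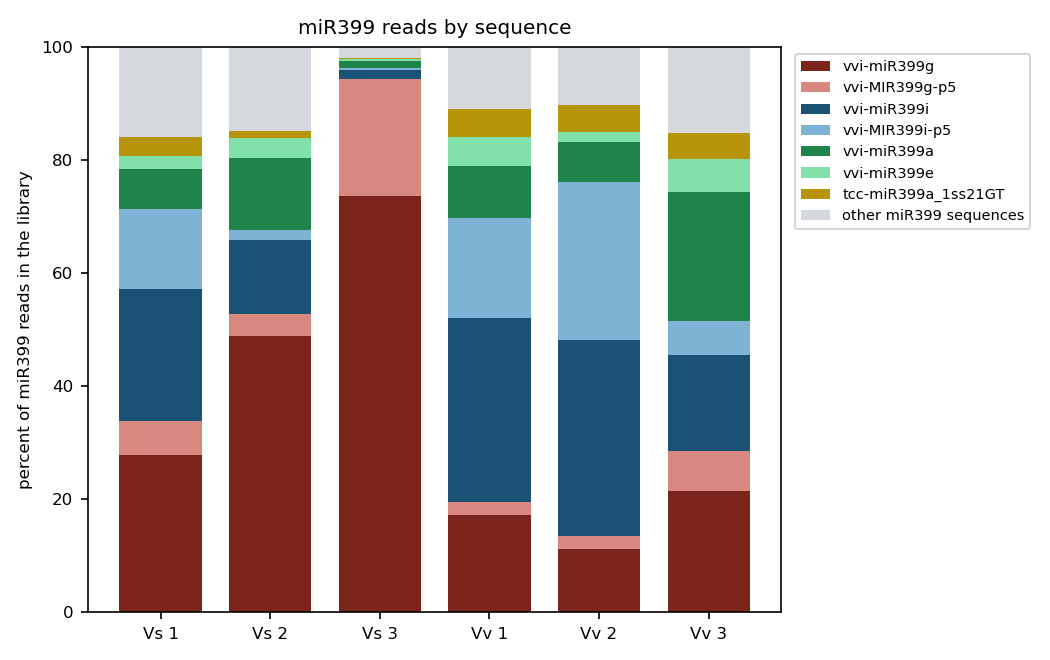
Each bar splits the miR399 reads of 1 library by sequence, in percent of the family, with Vs libraries left of Vv libraries. The dark red part, vvi-miR399g, reaches 73.7% in Vs replicate 3 and stays at or below 21.4% in the Vv plants.

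Values spread widely between plants of 1 kind. The median coefficient of variation of the 18 tested members was 74.1% in Vs hybrids and 58.0% in Vv plants, beside 34.9 and 41.3% over all 332 tested entries. For the 13 miR399 entries it was 79.9% in Vs hybrids and 57.1% in Vv plants, and for the 3 miR395 entries 38.2 and 59.1%. The widest was vvi-MIR399i-p5 in Vs hybrids, where the highest library held 23.2 times the lowest. The narrowest in Vs hybrids was stu-miR827-5p_2ss8AC19TG, with a ratio of 1.57, against 1.43 in Vv plants.

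The mature miR827, tcc-miR827_1ss9CT, ranked 7 by its mean share of the library total, among the 972 entries left once equal counts were merged. It had 19756, 19869 and 11104 CPM in Vs hybrids and 11876, 27683 and 50197 CPM in Vv plants. Vv replicate 3 was far above the rest and Vv replicate 1 lay among the Vs hybrids. Its log2 fold change was -0.82 (SE 0.50, edgeR adjusted p = 0.315), and -0.32 without Vv replicate 3. Reads from the other arm, stu-miR827-5p_2ss8AC19TG, were at 42.4, 44.8 and 66.5 CPM in Vs hybrids and at 86.6, 106 and 124 CPM in Vv plants. These groups did not overlap, and the adjusted p was 0.184 from edgeR. The 5p reads were at most 0.724% of miR827 reads in any library, so the 3p arm carried nearly all of the family.

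In miR395, vvi-miR395a made up 72.1 to 87.5% of the reads of the family once its 12 precursors were added up. Its share at 1 precursor was 33.8, 75.7 and 55.3 CPM in Vs hybrids and 79.3, 62.8 and 108 CPM in Vv plants. The groups overlapped, with a log2 fold change of -0.60 (SE 0.50, edgeR adjusted p = 0.450). The variant with 1 more base at its 3′ end, stu-miR395a_R+1, had 13.3, 43.8 and 15.2 CPM in Vs hybrids and 19.1, 11.5 and 60.7 CPM in Vv plants. Each group held 1 high library, and the log2 fold change was -0.34 (SE 0.73, edgeR adjusted p = 0.819).

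The 5p reads of MIR395g (chr1:6482113-6482198, plus strand) had the lowest unadjusted p of all 18 members. vvi-MIR395g-p5 was at 56.5, 49.8 and 90.5 CPM in Vs hybrids and at 208, 85.2 and 331 CPM in Vv plants, and the groups overlapped only through Vv replicate 2, which lay just under Vs replicate 3. This gave a log2 fold change of -1.66 (SE 0.58, edgeR adjusted p = 0.129). DESeq2 gave the same entry an adjusted p of 0.0308, the lowest of all alternatives, which ran up to 0.263. The product made up 11.5, 4.80 and 11.3% of miR395 reads in Vs hybrids and 16.5, 9.74 and 18.5% in Vv plants.

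The 14 entries that did not pass the filter on low counts, 7 of miR395 and 7 of miR399, are given only as levels. Their highest CPM in any library had a median of 2.34, and 1 of them was above 10 CPM anywhere. This was vvi-MIR395i-p5_1ss11CG, whose sequence and counts were the same at MIR395f, MIR395j and MIR395l, with 1.73, 4.18 and 2.52 CPM in Vs hybrids and 12.6, 2.79 and 23.9 CPM in Vv plants. As for vvi-MIR395g-p5, Vv replicates 1 and 3 were the high libraries.

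The ratio of the arms could be formed for 14 precursors, as log2 of (5p counts + 0.5) over (3p counts + 0.5) within each library. These gave 10 distinct sets of values, in which MIR395f stands for 4 precursors and MIR395c for 2. At MIR395c, MIR395f, MIR395g, MIR399a, MIR399b and MIR399h the 3p value is an equal share of a sequence with several precursors. In 9 of the 10 sets the 3p arm, the mature one, was the larger in the mean of both groups. The exception was MIR395g, with 0.73, -0.60 and 0.70 in Vs hybrids and 1.38, 0.43 and 1.62 in Vv plants, although its 3p value is only the equal share of vvi-miR395a that this precursor was given. MIR399i had -0.74, -2.78 and -2.28 in Vs hybrids and -0.88, -0.31 and -1.49 in Vv plants. Differences between the group means, Vs hybrids minus Vv plants, ran from -1.06 at MIR395f to 1.28 at MIR399e. An exact two-sided permutation test gave p from 0.2 to 0.8 over the 10 ratios, adjusted p from 0.667 to 0.8, and with 3 plants against 3 it cannot go below 0.1. For MIR399g the difference was -0.32 (exact permutation p = 0.7).

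**Figure D4:**
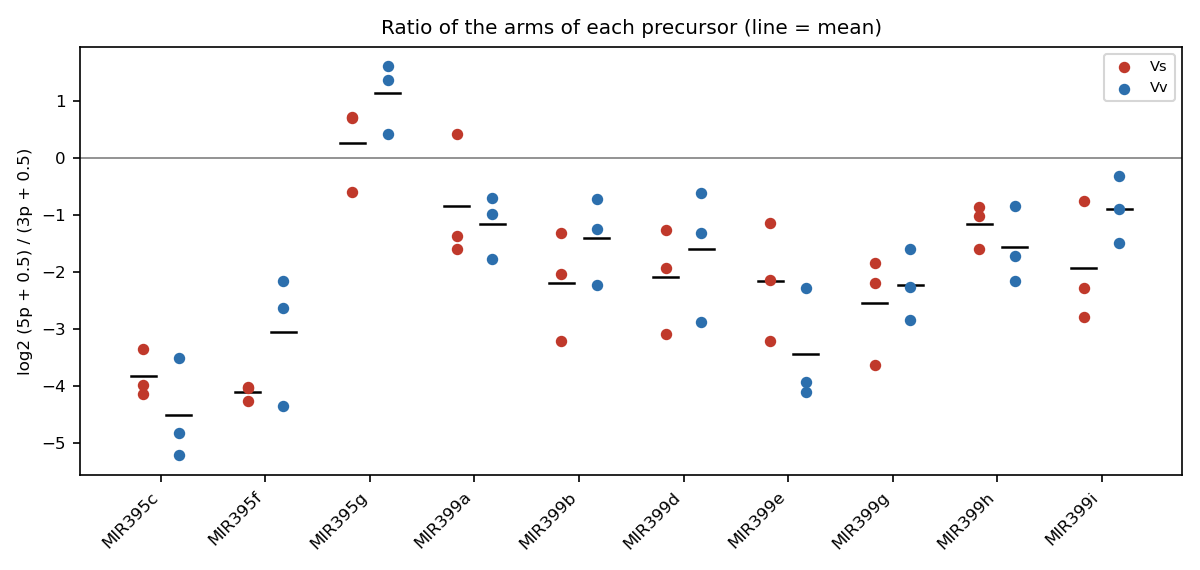
For each of the 10 distinct sets of values, labelled by 1 precursor, the log2 ratio of 5p to 3p counts (0.5 added to each) is plotted per library. Vs hybrids (red) stand left of Vv plants (blue), with lines at the group means. The groups overlap in all 10 sets, and only MIR395g has both means above 0, at 0.28 in Vs hybrids and 1.14 in Vv plants.

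A further miRNA, miR2111, is also induced by phosphate shortage in *Arabidopsis*. vvi-miR2111-5p was at 111, 893 and 396 CPM in Vs hybrids and at 156, 140 and 344 CPM in Vv plants, and vvi-miR2111-3p at 36.1, 153 and 150 CPM in Vs hybrids and 35.4, 21.1 and 122 CPM in Vv plants. The log2 fold changes were 1.13 (SE 0.72, adjusted p = 0.341) and 0.93 (SE 0.77, adjusted p = 0.462) from edgeR. In both, Vs replicate 1 was far below the other Vs libraries, and the groups overlapped.

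The degradome table lists predicted target sites and the reads whose 5′ end falls at the site, which is where a cut by the miRNA would leave one. Of its 8858 rows, 300 belonged to 36 members and 154 transcripts, and reads were detected in 91 of the 300 (30.3%), beside 17.6% of all rows. Category 0, in which the site holds the most reads of its transcript, was given to 10 member rows, category 2 to 35, category 3 to 1 and category 4, a single read, to 45. Of 1559 detected rows of all miRNAs, 372 were in category 0, 675 in category 2, 22 in category 3 and 469 in category 4. Category 0 thus took a smaller part of the detected rows among members than over all rows, and category 4 a larger one. By family, 49 of 159 rows were detected for miR395, 41 of 126 for miR399 and 1 of 15 for miR827. The rows are not independent, since identical sequences such as the 5p reads of MIR395f, MIR395i, MIR395j and MIR395l repeat the same sites and several isoforms of 1 gene carry 1 site.

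The single detected row of miR827 was the strongest. tcc-miR827_1ss9CT was aligned to MSTRG.12589.1 (VIT_02s0025g04540, annotated as a membrane protein of transmembrane transport) at bases 386 to 406, with an alignment penalty of 2, where 0 is perfect pairing. At base 397 there were 259 reads, category 0, and the unadjusted p-value of the target caller was 0.00436. In RNA-seq this gene had 11.7, 14.1 and 11.8 FPKM in Vs hybrids and 23.1, 29.7 and 23.4 FPKM in Vv plants. All 3 Vs libraries lay below all 3 Vv libraries and replicates were close to each other. The difference of log2(FPKM + 1) was -0.96 (SE 0.20), with an adjusted p of 0.126 from limma over 15447 genes. The log2 fold change of tcc-miR827_1ss9CT itself was likewise below 0, at -0.82.

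For miR395 the category 0 row was vvi-miR395a on VIT_05s0020g04210 (MSTRG.15623), annotated as a phosphoadenosine phosphosulfate synthase with ATP sulfurylase activity, the enzyme activity that opens sulfate assimilation. It had 124 reads at base 376, an alignment penalty of 3.5 and a p-value of 0.0282 from the target caller. Its transcript was at 36.7, 22.9 and 22.6 FPKM in Vs hybrids and at 135, 44.8 and 22.1 FPKM in Vv plants. Vv replicate 1 was far above the rest and Vv replicate 3 was the lowest of all 6. The difference of log2(FPKM + 1) was -0.92 (SE 0.65, limma adjusted p = 0.434).

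AST56 (MSTRG.9690), a sulfate transporter, was aligned better, with a penalty of 1.5 for vvi-miR395a and 2 for stu-miR395a_R+1, but held 7 reads in category 2, with p from 0.678 to 0.710 from the target caller. It had 24.7, 20.6 and 21.3 FPKM in Vs hybrids and 31.0, 21.4 and 4.45 FPKM in Vv plants. Only Vv replicate 3 was low, and the difference of log2(FPKM + 1) was 0.56 (SE 0.65, limma adjusted p = 0.631), and -0.21 without that library.

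The 8 category 0 rows of miR399 were all at 1 site of 1 gene, MSTRG.5327 (VIT_14s0060g00010), annotated only as a structural constituent of the ribosome. The site is base 1227 of MSTRG.5327.1 and base 1097 of MSTRG.5327.3, with 38 reads, 12.7 after the authors divided them over the transcripts they map to. It was listed for vvi-miR399a, vvi-miR399b, vvi-miR399e and csi-miR399c_R+2, of which vvi-miR399e paired best with a penalty of 1.5, and p ran from 0.00633 to 0.0138 from the target caller. The gene was low, at 1.10, 0.925 and 1.22 FPKM in Vs hybrids and 1.37, 2.36 and 2.32 FPKM in Vv plants. The groups did not overlap, and the difference of log2(FPKM + 1) was -0.52 (SE 0.26, limma adjusted p = 0.294).

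MSTRG.21700 (VIT_00s0265g00070), annotated with ubiquitin-protein ligase activity and placed in ubiquitin-mediated proteolysis, was chosen after its values were seen, because different miR399 sequences were aligned to different places on its transcript. vvi-miR399g paired without penalty at bases 549 to 569, where no reads were detected. vvi-miR399e paired at bases 653 to 673 with a penalty of 1, and 4 reads lay at base 664 (category 2). vvi-miR399a, vvi-miR399b and vvi-miR399i paired at bases 790 to 810, with 4 reads at base 801 (category 2), and vvi-miR399d_L+2R-2 at bases 946 to 966 with a penalty of 1.5 and no reads. The alignments thus lay at 4 places, some shared by several sequences, and reads were detected at 2 of them, neither being the place of vvi-miR399g. The p values of the detected rows ran from 0.403 to 0.562 from the target caller. Its transcript was at 1.77, 4.66 and 7.06 FPKM in Vs hybrids and at 4.56, 14.0 and 3.75 FPKM in Vv plants, with overlapping groups and a difference of log2(FPKM + 1) of -0.55 (SE 0.58, limma adjusted p = 0.594).

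**Figure D5:**
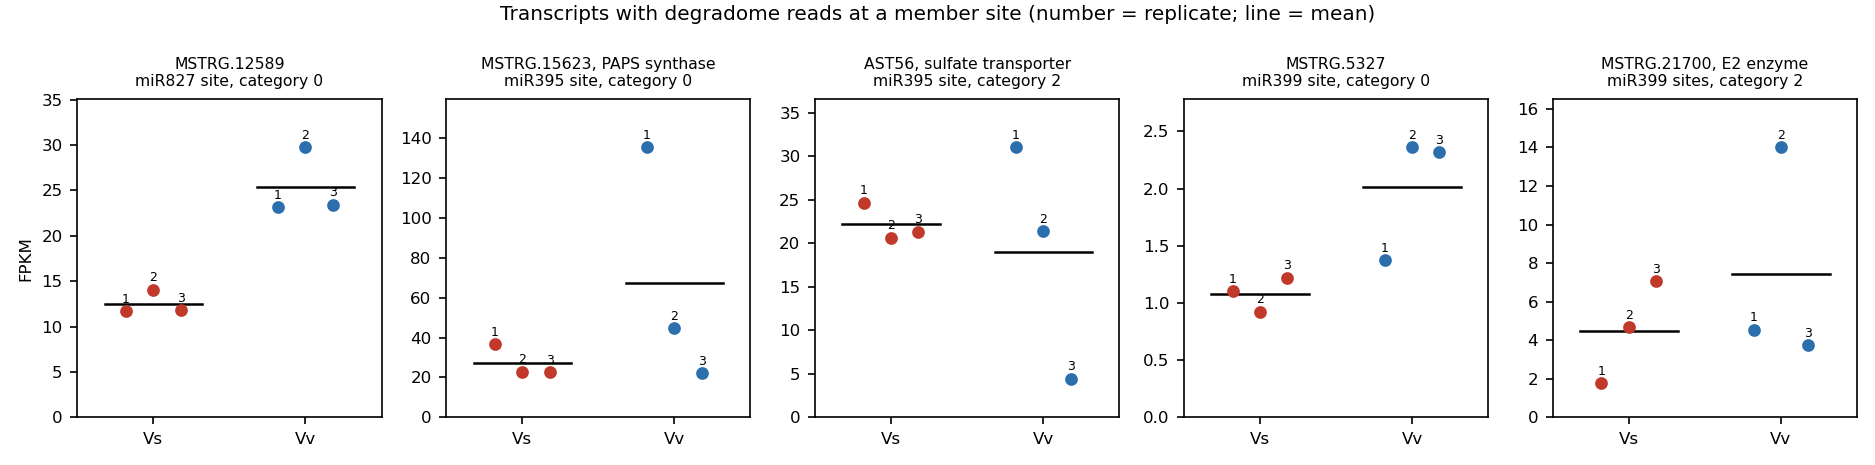
FPKM of 5 genes whose transcripts held degradome reads at a member's site, with a point per library numbered by replicate, Vs hybrids (red) left of Vv plants (blue), and a line at the group mean. The groups do not overlap for MSTRG.12589 (11.7 to 14.1 against 23.1 to 29.7 FPKM) and MSTRG.5327, and they overlap for the other 3.

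The 5p reads of MIR399i had 17 detected rows of 21, the most of any member. All 17 were on 4 loci with neighbouring locus tags, MSTRG.15763 to MSTRG.15766, among them VIT_05s0049g00760 (MSTRG.15765), annotated as a ripening-induced protein, with 40 reads at base 244 in category 2 and a p-value of 0.998 from the target caller. MSTRG.15766 had 9.88, 58.8 and 28.5 FPKM in Vs hybrids and 70.8, 67.9 and 277 FPKM in Vv plants, and MSTRG.15765 was listed at 0 FPKM in replicate 1 of both kinds. The 3 genes annotated as ripening genes, of which MSTRG.15765 is one, summed to 43.4, 291 and 68.0 FPKM in Vs hybrids and 31.9, 611 and 1246 FPKM in Vv plants. The part of the organ mix in these values was not tested.

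Some predicted targets had no reads at the site. tcc-miR827_1ss9CT was also aligned to MSTRG.3148, annotated as a ubiquitin-conjugating enzyme E2 O, with a penalty of 4. This gene had 8.80, 12.2 and 9.99 FPKM in Vs hybrids and 16.7, 15.0 and 18.5 FPKM in Vv plants, without overlap, a difference of log2(FPKM + 1) of -0.65 (SE 0.20, limma adjusted p = 0.178). vvi-MIR395g-p5 was aligned to MSTRG.13488, a phosphatidylinositol 4-kinase, at 6.43, 12.1 and 9.60 FPKM in Vs hybrids and 13.8, 17.6 and 19.5 FPKM in Vv plants, also without overlap, with a difference of -0.82 (SE 0.27, limma adjusted p = 0.191). MSTRG.4221, a phosphate transporter aligned to vvi-miR399i and vvi-miR399b, was listed at 0 FPKM in all 3 Vs libraries and at or under 0.0395 FPKM in the Vv libraries.

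Over all rows of members, 80 genes were in the expression table and 59 were tested with limma. None passed an adjusted p of 0.05, where 0.414% of all tested genes did, and 13 had an unadjusted p of 0.05 or less, 12 of them lower and 1 higher in Vs hybrids, which is 22.0% beside 20.7% of all tested genes, of which 16.9% were lower and 3.77% higher. Groups did not overlap in 21, of which 17 had Vs hybrids below and 4 above, where 31.8% of all tested genes did not overlap, 26.2% with Vs hybrids below and 5.55% above. Of the 18 genes with a detected row, 17 were tested, 5 had an unadjusted p of 0.05 or less, all lower in Vs hybrids, and 6 had Vs hybrids below without overlap. The median difference of log2(FPKM + 1) was -0.40 for the 59 genes and -0.79 for the 17, beside -0.25 over all tested genes. That median of all genes was -0.01 after median-ratio scaling of the FPKM values and -0.07 after quantile normalization. The differences given here are of unscaled values, so they are to be read beside the median of -0.25, which is not a shift of every gene. Of all tested genes, 67.5% had a difference below 0.

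Among the genes of phosphate transport and starvation, 21 of 29 were tested, 1 had an unadjusted p of 0.05 or less and was lower and 1 was higher, which is 9.52% beside 20.7% of all tested genes, with a median difference of 0.08. The higher one was ANTR1, a phosphate transporter of plastids, at 13.1, 17.5 and 28.9 FPKM in Vs hybrids and 9.14, 11.98 and 5.76 FPKM in Vv plants. Its groups did not overlap, and the difference of log2(FPKM + 1) was 1.04 (SE 0.37, limma adjusted p = 0.205). The lower one was MSTRG.6283, a mitochondrial phosphate carrier, at 6.47, 8.19 and 6.33 FPKM in Vs hybrids and 13.2, 9.01 and 11.4 FPKM in Vv plants. Its difference was -0.60 (SE 0.21, limma adjusted p = 0.202). ATSPX4, an SPX-domain protein that senses phosphate status in *Arabidopsis*, had 1.49, 5.72 and 8.63 FPKM in Vs hybrids and 8.84, 10.7 and 8.09 FPKM in Vv plants, with overlapping groups. Its difference was -0.90 (SE 0.50, limma adjusted p = 0.337).

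ANTR1 is a gene of green tissue, and 16 chlorophyll a-b binding genes, markers of leaf, summed to 8002, 6613 and 10896 FPKM in Vs hybrids and to 6483, 5756 and 909 FPKM in Vv plants. Vv replicate 3 was lowest in both, 2 of the 16 were at 0 in at least 1 library and none in all. The sum does not give the direction of single genes. The paper reports that most of the light-harvesting genes that differed were lower in Vs hybrids, at relatively low expression. APL (MSTRG.12182), a regulator of phloem identity, was at 4.91, 5.61 and 3.18 FPKM in Vs hybrids and 2.29, 3.20 and 1.58 FPKM in Vv plants. The part of leaf, berry and phloem content in the values of the miRNAs and their targets was not tested.

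In sulfate transport, 12 of 17 genes were tested and 2 had an unadjusted p of 0.05 or less, both lower in Vs hybrids, which is 16.7% beside 20.7% of all tested genes (16.9% lower), with a median difference of -0.22 beside -0.25. These were the transporter genes MSTRG.4255 and MSTRG.2287, which carry no degradome row of miR395. MSTRG.4255 had 3.50, 5.59 and 6.68 FPKM in Vs hybrids and 15.6, 10.9 and 16.0 FPKM in Vv plants, a difference of -1.29 (SE 0.27, limma adjusted p = 0.131). MSTRG.2287 had 15.7, 29.0 and 53.9 FPKM in Vs hybrids and 84.2, 202 and 132 FPKM in Vv plants, a difference of -2.13 (SE 0.53, limma adjusted p = 0.155). In both genes every Vs library lay below every Vv library, as in 26.2% of all tested genes. The next lowest p of the list was that of MSTRG.20340, at 0.480, 1.47 and 0.684 FPKM in Vs hybrids and 1.10, 2.98 and 2.58 FPKM in Vv plants. Its groups overlapped, with a difference of -0.76 (SE 0.36, limma adjusted p = 0.282). With a mean of 0.876 FPKM in Vs hybrids, MSTRG.20340 passed the filter of 1 FPKM only through the Vv plants.

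In sulfur metabolism, 24 of 28 genes were tested and 3 had an unadjusted p of 0.05 or less, all lower in Vs hybrids, which is 12.5% beside 20.7% of all tested genes (16.9% lower), with a median difference of -0.25, as over all genes. MSTRG.18277, an adenylyl-sulfate kinase, which makes the sulfate donor of sulfation, had 0.412, 0.442 and 0.396 FPKM in Vs hybrids and 1.14, 1.57 and 2.43 FPKM in Vv plants, a difference of -0.91 (SE 0.31, limma adjusted p = 0.195). With a mean of 0.417 FPKM in Vs hybrids, it passed the filter of 1 FPKM only through the Vv plants. Its difference is therefore given only as a description. SIR, the sulfite reductase that makes sulfide, had 12.3, 25.3 and 28.4 FPKM in Vs hybrids and 40.5, 38.3 and 34.6 FPKM in Vv plants, a difference of -0.83 (SE 0.33, limma adjusted p = 0.236). MSTRG.5730, a cysteine synthase, which fixes sulfide into cysteine, had 3.04, 1.90 and 1.23 FPKM in Vs hybrids and 4.99, 7.09 and 4.22 FPKM in Vv plants. Its difference was -1.09 (SE 0.31, limma adjusted p = 0.166). None of the 3, which were picked for the lowest p in their list, overlapped between Vs hybrids and Vv plants. In that list 5 of the 24 tested genes did not overlap, all with Vs hybrids below. Over all tested genes 31.8% did not overlap, 26.2% with Vs hybrids below. No gene of the 3 pathway lists passed an adjusted p of 0.05 in limma.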

How the data were processed

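Total RNA of leaf, phloem and ripe berry was pooled per plant, and small RNA, RNA-seq and 1 mixed degradome library were sequenced. The authors took small RNA reads of 18 to 25 nt through ACGT101-miR against miRBase 21.0 precursors and deposited estimated counts, in which the reads of a sequence are divided among its precursors, so that 29.6% of values are not whole. The miRNA table also holds 6 per-sample normalized columns, which were not used. For RNA-seq the authors mapped reads with HISAT and deposited FPKM from StringTie 1.3.4, with the genome build not given in the sources used here. For the degradome the authors deposited, from CleaveLand 3.0, raw read counts at each site, a signal of reads divided over transcripts, an alignment score, a category score and an unadjusted p-value.

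Members and gene lists were chosen with earlier results of these data known. Of 1178 entries, 972 were left once those of equal counts throughout were merged, and estimated counts were rounded. edgeR 4.0.16 (R 4.3.3) was used with TMM factors, filterByExpr and its quasi-likelihood test over 332 entries, DESeq2 1.42.0 as an alternative. Genes averaging 1 FPKM or more were tested with limma 3.58.1 (trend, robust) on log2(FPKM + 1), a scale on which low genes change less. All adjustments are Benjamini-Hochberg. Arm ratios used an exact two-sided permutation test (scipy 1.17.1). The programs were run on simulated data. The simulated miRNA counts were set to vary less between libraries than the members did, so that run does not show which differences could be called among them. Named with full values were the 2 tested entries of highest CPM per family and arm, members at an unadjusted p of 0.05 or less, the extremes of each family, genes of category 0 rows or annotated for sulfate, phosphate or E2 enzymes, and the 3 genes of lowest p per pathway list. Further members, such as vvi-MIR395i-p5_1ss11CG, and MSTRG.21700, MSTRG.15765, MSTRG.15766 and MSTRG.2075 were chosen after their values were seen. So were MSTRG.507, MSTRG.14648 and MSTRG.13691, which are not described above. Their differences were -0.91, -0.84 and -0.79, with Vs hybrids below and no overlap. All of these genes count among the 22 genes followed under the alternatives. Chromosome numbers were read from RefSeq miRNA gene names (ASM3070453v1), coordinates from the deposited table. Reads carry no molecular identifiers. Normalization, filter, test, pseudocount, replicate block and each library were varied in turn.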

Additional observations from a re-analysis of the deposited data

How the results depend on the processing

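Against 0 members past an adjusted p of 0.05 in edgeR, DESeq2 gave 1 (vvi-MIR395g-p5) and leaving out 1 library gave 0 to 1. The 4 members at an unadjusted p of 0.05 or less became 9 with no filter, 7 in DESeq2 and 2 to 5 with 1 library left out, 2 of them without Vs replicate 3 or without Vv replicate 3. The shares of all entries at that unadjusted threshold were not computed for these alternatives. Over all entries, the 20 calls became 0 with at least 10 counts in every library, 45 in DESeq2 and 1 to 17 with 1 library left out. For genes of member degradome rows the count of 0 became 1 without Vs replicate 3, which was MSTRG.2075 (VIT_11s0016g01810), at 597 and 171 FPKM in Vs replicates 1 and 2, 0 in Vs replicate 3 and 0, 0 and 2.98 FPKM in Vv plants. Its mean in Vv plants, 0.992 FPKM, lay under the filter of 1 FPKM, so it passed only through the Vs hybrids. The 64 calls over all genes became 35 with no filter, 42 after median-ratio scaling and 22 to 64 with 1 library left out. The 91 detected degradome rows became 10 in category 0 alone and 13 at an alignment score of at most 3.

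The replicate numbers were not treated as pairs in the main tests. Deviations from the group means correlated at -0.178 to 0.00829 between same-numbered libraries in small RNA and at -0.0468 to 0.169 in RNA-seq. Between libraries of other numbers they correlated at -0.0627 to 0.176 in small RNA and at -0.122 to 0.115 in RNA-seq. With 3 plants of each kind these values cannot exclude pairing. With the replicate block there were 0 calls over all entries, 5 over all genes, and the log2 fold change of vvi-MIR399e-p5 was 0.084. With 1 library left out, log2 fold changes that turned ran from -0.60 to 0.74 for vvi-MIR399e-p5 (0.35 without Vs replicate 3), -0.11 (without Vs replicate 3) to 2.16 for vvi-MIR399g-p5, -0.93 to 0.14 for vvi-miR399d_L+2R-2 and -1.12 to 0.53 for stu-miR395a_R+1. The gene differences that turned ran from -0.21 (without Vv replicate 3) to 1.07 for AST56 (MSTRG.9690) and from -3.36 to 0.65 for MSTRG.15765, and the arm differences from -0.32 to 0.68 at MIR399a, -1.13 to 0.0049 at MIR399d and -0.68 to 0.22 at MIR399g. The cause of these turns was not tested. The direction was kept in 14 of 18 members, 20 of 22 genes and 7 of 10 arm ratios under every alternative run, among them reads summed over precursors, an alternative chosen after seeing the data. The SEs given come from the fits, which moderate the variance of each entry or gene over all those tested. They are therefore not the spread between the 3 plants of each kind alone. The SEs of edgeR were derived from the log2 fold change and its F statistic.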
